A study of Schizosaccharomyces pombe with 8 samples.

Results

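The genes described here are 10 genes of mating and sexual differentiation in the fission yeast *Schizosaccharomyces pombe*, namely *ste11*, *mei2*, *mfm1*, *mfm2*, *mfm3*, *map2*, *map3*, *mam1*, *mam2* and *sxa2*. They were taken by name from a list drawn up with earlier results of these data known, and all 10 were found among the 5165 genes measured. RNA sequencing compared Δ*top1* cells (strain RF14, h- top1::kanMX6), which lack topoisomerase I, with wild-type cells (strain 972, h-). Each strain was either exposed to 1 mM H2O2 for 30 min or left untreated, which gives 4 groups of 2 libraries, and both strains are haploids of the M mating type. The comparisons ask how peroxide changes the transcripts of these genes and whether the loss of Top1 alters that change.

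Fission yeast cells mate and enter meiosis when nutrients run out. The HMG-box transcription factor Ste11 switches on most genes of the programme, its own gene included, and the RNA-binding protein Mei2 commits the cell to meiosis. M cells secrete M-factor, a lipid-modified peptide, and sense P-factor from P cells, so each mating type has its own pheromone genes and receptor. The stress MAP kinase Sty1 and the factors Atf1 and Pcr1 act on *ste11* in starved cells, whereas the cAMP-dependent kinase Pka1 represses it.

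Ste11 binds a promoter element called the TR box, and the core letters searched here were TTCTTTGT, on both strands. Genes were matched by identifier to the RefSeq annotation of the assembly ASM294v3, and no coordinate was carried over from the older assembly named for the files. From 250 bases before to 50 bases after the annotated transcript start, the core was present in 4 of the 10 genes (*ste11*, *mei2*, *mfm1* and *mfm3*) and in 189 of 5128 genes with such a window (3.69%). Within 1000 bases before the start it was present in 7 of the 10 genes, as *map2*, *mam1* and *mam2* also held it, and in 608 of 5128 genes (11.86%). The annotation gives *mfm3*, *map2*, *map3* and *mam2* no leader, so their windows are set from the coding sequence. The leaders of *ste11* and *mei2* measure 2210 and 1733 bases, so the windows cover unlike regions. A match of 8 letters is a description of the sequence and not a measured binding site.

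The sites of the nearer window are shown. The genes *mfm2*, *map3* and *sxa2* held no core in either window, and *mfm2* and *map3* were called lower in both strains below. A link between the core and the response was not tested. Capitals mark the core. The *ste11* site, II:3983238-3983267 on the + strand, has its core 127 bases before the start. The first *mei2* site is at I:4515167-4515196, with the core 160 bases before the start, the second at I:4515145-4515174, with the core 138 bases before it, and a further one at I:4514976-4515002, with the core 34 bases after it, all on the - strand. The *mfm1* site is at I:4916926-4916955 and the *mfm3* site at II:700190-700219, both written on the - strand, opposite to the gene.
ste11: aaaagttgaatTTCTTTGTttgattttcat
mei2, first: agccgaccgatTTCTTTGTtcctattttaa
mei2, second: tattttaaagtTTCTTTGTtttacaaaccc
mei2, further: tgctgttgagaTTCTTTGTttacttgg
mfm1: aaaactgagacTTCTTTGTtggtcggaccc
mfm3: aaatctgagacTTCTTTGTtggttgggcct

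The 3 M-factor genes encode precursors of the same pheromone, which bears on how their reads can be told apart. The last 48 coding bases, stop codon included, are printed with capitals where all 3 genes hold the same base, which was so at 41 of 48 positions. The coding sequences measure 129 bases in *mfm1* (I:4917099-4917298, + strand), 135 bases in *mfm2* (I:2913008-2913184, - strand) and 126 bases in *mfm3* (II:700364-700556, + strand).
mfm1: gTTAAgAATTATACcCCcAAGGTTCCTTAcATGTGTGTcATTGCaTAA
mfm2: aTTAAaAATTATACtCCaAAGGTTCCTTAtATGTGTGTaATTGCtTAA
mfm3: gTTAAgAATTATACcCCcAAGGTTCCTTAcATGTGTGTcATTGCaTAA
The *mfm1* and *mfm3* transcripts shared an identical run of 48 bases, and 4.43% and 7.5% of their 31-base words. That run is shorter than the reads of 50 bases, so a full-length read across it reaches a differing base. The longest run that *mfm2* shared with either was 11 bases.

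Values are the deposited normalized counts, that is reads divided by a size factor of the library, and 3 reads, taken as the floor of detection, were worth between 2.44 and 3.73 of them. The libraries held between 16090015 and 19899720 reads on genes. The deleted gene had 244 and 244 normalized counts in H2O2-treated Δ*top1* cells, against 2013 and 2513 in treated wild-type cells, and 309 and 286 in untreated Δ*top1* cells, against 1967 and 2150 in untreated wild-type cells. The *top1* level was thus low in each library labelled Δ*top1*. No M marker and no P marker was at 0 in any library, and the 7 M markers summed to between 1648 and 3100 normalized counts. Although both strains are M cells, the 4 P markers summed to between 7770 and 13187 normalized counts, most of it from the protease gene *sxa1*, and the other 3 (*map2*, *map3* and *map4*) summed to between 374 and 1184. The strains' mating type locus, looked at after the values were seen, gave 3 reads of *mat2-Pc* over the 8 libraries, while *mat1-Mc* had at least 425 reads in each.

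**Figure D1:**
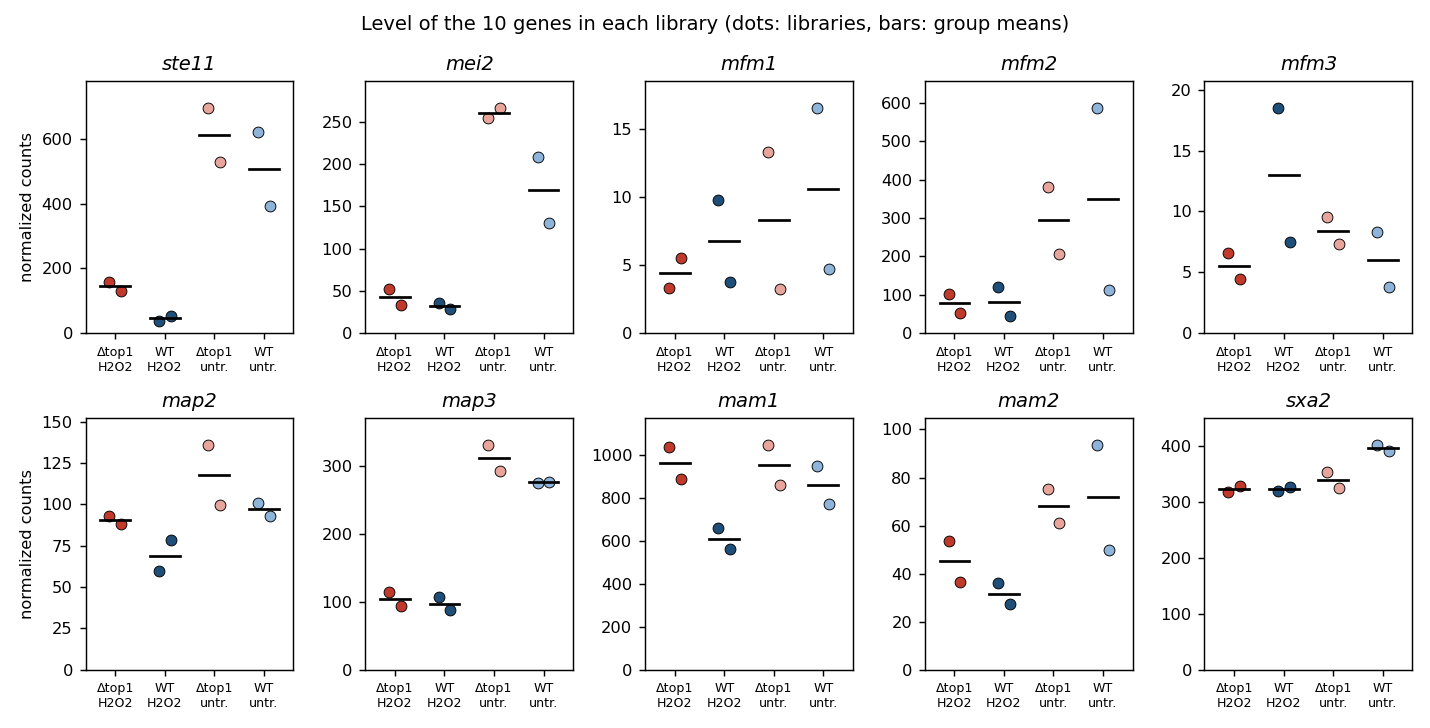
Normalized counts of the 10 genes on linear axes starting at 0, with 1 dot per library and a bar at the mean of each group of 2 (untr., untreated; WT, wild-type). The *ste11* libraries of treated Δ*top1* cells, at 159 and 129, lie between those of treated wild-type cells, at 38.1 and 52.2, and those of untreated cells.

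In wild-type cells peroxide lowered 5 of the 8 genes that could be tested and raised none. The 5 were *ste11*, *mei2*, *mfm2*, *map3* and *mam2*, and 11.3% of all 5019 genes tested were called lower by the same rule, against 12.2% called higher. A gene was called where the adjusted p of limma (Benjamini-Hochberg, over all genes tested) was under 0.1 and the change was at least 2-fold. In Δ*top1* cells 4 of the 8 were lowered and none was raised, with 10.8% of all genes called lower and 12.6% called higher. These 4 were *ste11*, *mei2*, *mfm2* and *map3*. The median response of the 8 genes was -1.09 on the log2 scale in Δ*top1* cells and -1.30 in wild-type cells, where the medians of all genes tested were -0.0019 and 0.0028. The treated and untreated libraries did not overlap for 6 of the 8 genes in Δ*top1* cells, all lower, and for 7 of the 8 in wild-type cells, all lower. Among all genes such a gap was found lower for 42.7% and higher for 42.4% in Δ*top1* cells, and lower for 40.7% and higher for 40.9% in wild-type cells.

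The transcription factor gene *ste11* lies at II:3983376-3987400 on the + strand, and its annotated transcript of 4025 bases has a leader of 2210 bases before the coding sequence. Its level was 159 and 129 normalized counts in treated Δ*top1* cells, against 695 and 529 in untreated Δ*top1* cells. In treated wild-type cells it was 38.1 and 52.2, against 622 and 394 in untreated wild-type cells. All 4 treated libraries were below all 4 untreated ones, and the treated wild-type libraries were the lowest.

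The mean of *ste11* in treated Δ*top1* cells, 144 ± 21.3 (SD, n = 2), was 23.5% of the untreated mean of 612 ± 118. In wild-type cells the treated mean of 45.1 ± 9.93 (SD, n = 2) was 8.88% of the untreated mean of 508 ± 162. The log2 response of *ste11* was -2.07 (SE 0.26, limma adjusted p = 0.00015) in Δ*top1* cells. In wild-type cells it was -3.44 (SE 0.26, limma adjusted p = 8.3e-06). Both responses of *ste11* were called under each of the 20 alternative settings.

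The meiosis gene *mei2* (I:4510983-4515025, - strand) fell in both strains. It had 52.7 and 33.4 normalized counts in treated Δ*top1* cells, against 255 and 266 in untreated Δ*top1* cells. In wild-type cells it had 35.9 and 28.6 with peroxide, against 208 and 130 without. The treated and untreated libraries did not overlap in either strain. The log2 response of *mei2* was -2.61 (SE 0.30, limma adjusted p = 8.7e-05) in Δ*top1* cells and -2.32 (SE 0.30, limma adjusted p = 0.00017) in wild-type cells, to 16.5% and 19.1% of the untreated means.

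Of the pheromone genes, *mfm2* was the M-factor gene with reads in number. It had 102 and 52.3 normalized counts in treated Δ*top1* cells, against 382 and 205 in untreated ones. In wild-type cells *mfm2* had 121 and 43.5 with peroxide, against 587 and 111 without. The wild-type groups overlapped, and its untreated libraries there lay 5.28-fold apart. The log2 response of *mfm2* was -1.92 (SE 0.77, limma adjusted p = 0.056) in Δ*top1* cells and -1.80 (SE 0.77, limma adjusted p = 0.068) in wild-type cells. The wild-type call was lost without untreated wild-type replicate 1, at -0.61 with a limma adjusted p of 0.46, without treated wild-type replicate 2, at -1.08 with 0.31, with no filter on low values, at an adjusted p of 0.11, with only the compared groups in the fit, at 0.12, and at a threshold of 0.05, so that it held in 15 of 20 alternatives. The Δ*top1* call was lost without treated replicate 2, at -1.45 with 0.25, without untreated replicate 1, at -1.48 with 0.23, and at a threshold of 0.05, so that it held in 17 of 20.

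The other M-factor genes were near the limit of the depth. *mfm1* had 3 and 5 reads in treated Δ*top1* cells, against 14 and 4 in untreated ones, and 9 and 3 reads in treated wild-type cells, against 20 and 5 in untreated ones. *mfm3* had 6 and 4 reads in treated Δ*top1* cells, against 10 and 9 in untreated ones, and 17 and 6 reads in treated wild-type cells, against 10 and 4 in untreated ones. Their means over the 8 libraries, 7.53 and 8.24 normalized counts, were below the minimum of 10 set for testing, and neither was called when that minimum was dropped. A change in either gene was not detectable at this depth.

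The gene *mam1* encodes the ABC transporter that exports M-factor, and it was the member with the most normalized counts per kilobase in treated Δ*top1* cells (236). In the other groups *mfm2* had more, at 657 against 233 in untreated Δ*top1* cells. In wild-type cells it was 184 against 149 with peroxide and 781 against 210 without. *mam1* had 1036 and 889 normalized counts in treated Δ*top1* cells, against 1046 and 860 in untreated ones, groups that overlapped. In wild-type cells *mam1* had 658 and 560 with peroxide, against 946 and 770 without, groups that did not overlap. Its log2 response was 0.02 (SE 0.15, limma adjusted p = 0.93) in Δ*top1* cells and -0.49 (SE 0.15, limma adjusted p = 0.019) in wild-type cells, the second being under 2-fold.

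The receptor and protease of M cells gave smaller values. *mam2* encodes the receptor for P-factor, and it had 53.8 and 36.7 normalized counts in treated Δ*top1* cells, against 75.2 and 61.1 in untreated ones. In wild-type cells *mam2* had 35.9 and 27.3 with peroxide, against 93.6 and 49.9 without. The groups did not overlap in either strain, and the log2 response was -0.60 (SE 0.36, limma adjusted p = 0.17) in Δ*top1* cells and -1.10 (SE 0.36, limma adjusted p = 0.024) in wild-type cells. The wild-type call of *mam2* was lost without treated wild-type replicate 2, at -0.91 with a limma adjusted p of 0.10, and without untreated wild-type replicate 1, at -0.65 with 0.15.

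The gene *sxa2* encodes a carboxypeptidase that degrades P-factor, and of the genes tested it had the smallest response in wild-type cells and, after *mam1*, in Δ*top1* cells. It had 318 and 328 normalized counts in treated Δ*top1* cells, against 354 and 325 in untreated ones, and 320 and 328 in treated wild-type cells, against 403 and 391 in untreated ones. Its log2 response was -0.07 (SE 0.10, limma adjusted p = 0.57) in Δ*top1* cells and -0.29 (SE 0.10, limma adjusted p = 0.036) in wild-type cells, under 2-fold in both. Reads of *sxa2* are uncertain because a long non-coding RNA on the same strand shares 15.12% of its 31-base words.

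The P-cell genes behaved unlike each other. *map3*, the gene of the M-factor receptor, had 114 and 94.6 normalized counts in treated Δ*top1* cells, against 331 and 293 in untreated ones. In wild-type cells *map3* had 107 and 88.2 with peroxide, against 275 and 277 without. All 4 treated libraries were below all 4 untreated ones, with log2 responses of -1.58 (SE 0.16, limma adjusted p = 5.1e-05) in Δ*top1* cells and -1.50 (SE 0.16, limma adjusted p = 6.9e-05) in wild-type cells.

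The P-factor precursor gene *map2* had 93.3 and 87.9 normalized counts in treated Δ*top1* cells, against 136 and 99.4 in untreated ones. In wild-type cells *map2* had 59.9 and 78.2 with peroxide, against 101 and 93.2 without. The groups did not overlap in either strain, and the log2 responses were -0.36 (SE 0.22, limma adjusted p = 0.19) in Δ*top1* cells and -0.50 (SE 0.22, limma adjusted p = 0.078) in wild-type cells, under 2-fold in both. In the annotation *map3* overlaps *his6*, *mam1* overlaps *hbs1* and *sxa2* overlaps *cox4* on the other strand, and *ste11*, *mei2*, *mfm3*, *mam1* and *sxa2* overlap antisense non-coding RNAs. The libraries were made with a kit that keeps the strand, but whether the counting used it was not given in the sources used here, so these genes carry that uncertainty.

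**Figure D2:**
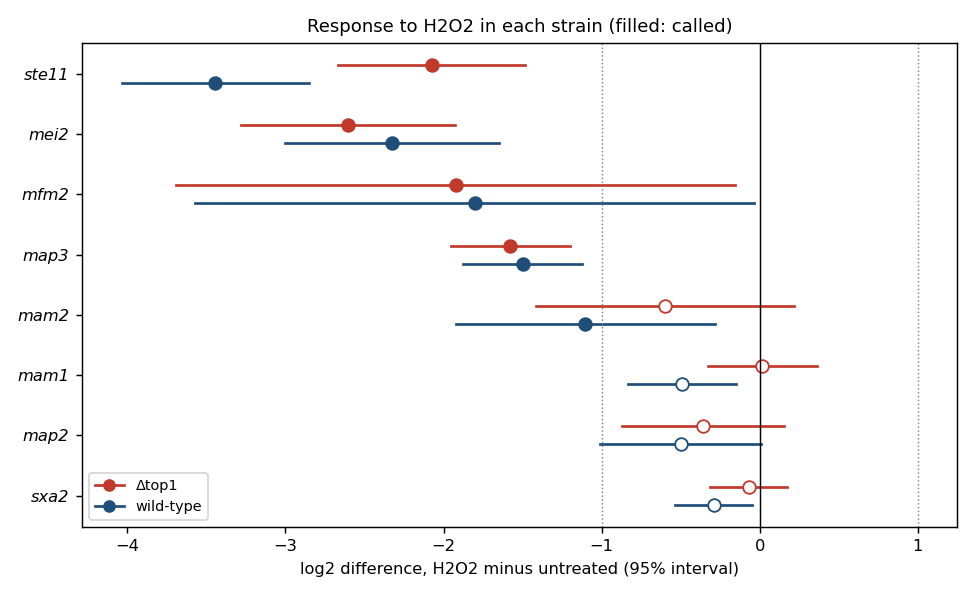
Log2 difference of H2O2-treated minus untreated cells for the 8 genes tested, in Δ*top1* cells (upper, red) and wild-type cells (lower, blue), with 95% intervals; filled dots were called and dotted lines mark 2-fold. The *ste11* estimates, -2.07 in Δ*top1* cells and -3.44 in wild-type cells, lie furthest apart.

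Between the treated strains, *ste11* and *mam1* were higher in Δ*top1* cells, 2 of the 8 genes, and none was lower. The fold asked for here was 1.5, and by that rule 4.86% of all genes tested were called higher and 4.52% lower. *ste11* was 3.19-fold higher by the means of treated Δ*top1* over treated wild-type cells, a log2 difference of 1.66 (SE 0.26, 95% interval 1.07 to 2.25, limma adjusted p = 0.0063). It was called under each of 20 alternatives, with differences between 1.44 and 1.88 and adjusted p between 1.8e-06 and 0.060. Both treated Δ*top1* libraries were above both treated wild-type libraries.

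The exporter gene *mam1* was 1.58-fold higher by the means, a log2 difference of 0.66 (SE 0.15, limma adjusted p = 0.022), also without overlap of the libraries. That call was lost without treated Δ*top1* replicate 1, at 0.55 with a limma adjusted p of 0.15. It was also lost without treated wild-type replicate 2, where the difference of 0.54 was under 1.5-fold. The other 6 genes had log2 differences between -0.0033 (*sxa2*) and 0.49 (*mam2*), and the libraries of 4 of the 8 did not overlap, with the Δ*top1* ones higher (32.5% of all genes, against 30.9% with them lower). For *map3* the difference was 0.10 with a 95% interval of -0.28 to 0.47, and for *mfm2* it was 0.01 with an interval of -1.76 to 1.78.

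Without peroxide none of the 8 genes was called between the strains by limma, none had an unadjusted p under 0.05, and edgeR and DESeq2 also called 0. By the 2-fold rule 0.179% of all genes were called higher in untreated Δ*top1* cells and 0.239% lower. *ste11* had a log2 difference of 0.29 (SE 0.26, 95% interval -0.30 to 0.88, limma adjusted p = 0.99), and its libraries overlapped. *mei2* had the largest difference, 0.66 (SE 0.30, 95% interval -0.02 to 1.34, limma adjusted p = 0.95), and its libraries did not overlap. Libraries of *mei2* and *map3* were apart with Δ*top1* higher (20.7% of all genes), and those of *sxa2* with Δ*top1* lower (15.9%).

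**Figure D3:**
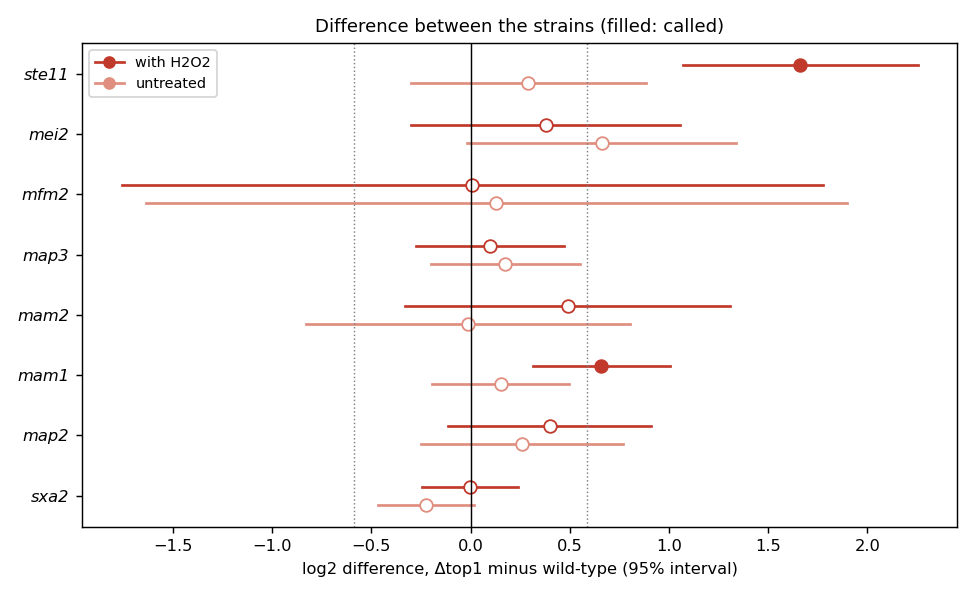
Log2 difference of Δ*top1* minus wild-type cells for the 8 genes tested, with H2O2 (upper, dark) and untreated (lower, pale), with 95% intervals; filled dots were called and dotted lines mark 1.5-fold. The *ste11* difference was 1.66 with H2O2 and 0.29 untreated.

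Whether the response differed between the strains was tested as the interaction of strain and treatment, called on its adjusted p alone. In the main limma fit, which holds no replicate block, none of the 8 genes was called. By that fit 2.13% of all genes were called with a higher response in Δ*top1* cells and 1.83% with a lower one. At an unadjusted p under 0.05 there were 2 genes, *ste11* and *mam1*, a count that has no share of all genes beside it. Of the 8 genes, edgeR called 0 and DESeq2 called 1, *ste11*. Over all 5019 genes edgeR called 108 higher and 84 lower, and DESeq2 called 150 higher and 222 lower. With replicate number as a block in the limma fit, 2 genes were called, again *ste11* and *mam1*. That fit also called many more of all genes, 431 higher and 448 lower, against 107 and 92 in the main fit. The labels do not say what a replicate number marks. For *ste11*, whose fall was the smaller one in Δ*top1* cells, the interaction in the main fit was 1.37 on the log2 scale and did not pass the threshold (SE 0.37, 95% interval 0.53 to 2.21, limma adjusted p = 0.11). Over 19 alternatives its adjusted p ranged between 0.012 and 0.36 and it was called in 4. For *mam1* the difference in the main fit was 0.51 (SE 0.21, limma adjusted p = 0.24), and for *mei2* it was -0.28 (SE 0.42, 95% interval -1.24 to 0.67, limma adjusted p = 0.76).

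The genes with profiles most like that of *ste11* were found by the root mean square distance between log2 values over the 8 libraries, each profile centred on its own mean, among 5018 other genes tested. They were *ptr2* (0.369 log2 units), *isp5* (0.425), *mrs2* (0.433), *rmi1* (0.473) and SPCC584.13 (0.491). *ptr2* encodes a peptide transporter and *isp5* an amino acid permease. Among the other members the nearest to *ste11* was *mei2*, at rank 9 (0.549).

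For *mei2* the nearest were SPAC13G6.08 (0.220), *ste6* (0.247), *dea2* (0.286), SPBC2A9.14 (0.302) and *mrs2* (0.320). *ste6*, which encodes the exchange factor that activates Ras1 in mating, had 74.6 and 62.3 normalized counts in treated Δ*top1* cells, against 342 and 287 in untreated ones, and 43.6 and 52.2 in treated wild-type cells, against 282 and 194 in untreated ones. *ste11* ranked 116 for *mei2*, so the 2 regulator genes were not each other's closest profile.

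The pathway around the 10 genes was described from lists of 48 further genes, of which 47 were found by symbol and tested. In Δ*top1* cells 9 were higher and 9 lower with peroxide. In wild-type cells 9 were higher and 11 lower, so the lists did not move one way. Of all genes tested, 12.6% were called higher and 10.8% lower in Δ*top1* cells, and 12.2% and 11.3% in wild-type cells. The same shares stand beside the counts of each list below. Of the 11 genes of pheromone signal transduction, 1 was higher and 5 were lower in Δ*top1* cells, and none was higher and 5 were lower in wild-type cells. *ste6* changed by -2.18 in Δ*top1* and -2.27 in wild-type cells on the log2 scale, *rgs1*, the regulator of the G protein, by -1.57 and -2.14, and the pheromone MAP kinase gene *spk1* by -1.67 and -1.56.

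Among the 14 regulators of *ste11* and *mei2*, 4 were higher and 2 lower in Δ*top1* cells, and 4 were higher and 1 lower in wild-type cells. The kinase gene *pka1* rose by 3.21 in Δ*top1* cells and 2.99 in wild-type cells on the log2 scale, and *pcr1* by 2.41 and 2.79. The gene of the RNA-binding protein *msa1*, which acts against sexual differentiation, changed by -2.68 in Δ*top1* cells and -3.31 in wild-type cells. Regulators that are known to act in opposite directions on *ste11* thus rose side by side.

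Of the 8 adhesion and fusion genes, 1 was higher and none lower in Δ*top1* cells, and 1 was higher and 2 were lower in wild-type cells. The higher one was the fusion formin gene *fus1*, at 1.36 in Δ*top1* and 1.30 in wild-type cells on the log2 scale. The lower ones in wild-type cells were *dni2* (-1.22, limma adjusted p = 0.076) and the adhesin gene *map4* (-1.09, 0.00075). *dni2* had only 7 and 6 reads in treated wild-type cells, against 27 and 17 in untreated ones. In Δ*top1* cells the values were close, at -0.93 (0.16) for *dni2* and -0.99 (0.0013) for *map4*, just under 2-fold. Neither gene was called for the interaction. Of the 8 genes of meiosis, 2 were higher and 1 lower in Δ*top1* cells, and 3 were higher and 2 lower in wild-type cells. The meiotic cohesin gene *rec8* rose by 1.65 in Δ*top1* and 1.76 in wild-type cells while *mei2* fell in both, and the cyclin gene *cig2* changed by -1.26 and -1.42.

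Of the 4 genes of pheromone processing and export, 1 was lower in each strain, *mam4*, whose product methylates the M-factor precursor, by -1.38 in Δ*top1* cells and -1.22 in wild-type cells. In the last list of 2 genes, *map1*, a transcription factor of P cells, rose by 1.62 in Δ*top1* and 1.56 in wild-type cells, and *sxa1* was not called, at 0.75 in Δ*top1* and 0.83 in wild-type cells, under 2-fold in both.

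Between the treated strains 3 of the 47 genes were higher in Δ*top1* cells and 2 lower, where 4.86% and 4.52% of all genes were called, so these counts were near the background. The higher ones were *gpa1*, the G protein subunit coupled to the pheromone receptors (0.68, limma adjusted p = 0.061), *myo51* (0.62, 0.0077) and *dni1* (0.62, 0.094). The lower ones were *mei4*, a transcription factor of meiosis (-0.90, 0.035), and *nrd1*, whose RNA-binding product represses genes that Ste11 switches on (-0.87, 0.0065). The interaction was called for *nrd1*, at -1.02 with a limma adjusted p of 0.054, and for the kinase gene *byr2*, at 0.52 with 0.078. Among all genes it was called higher for 2.13% and lower for 1.83%, so this count was near the background too. Untreated, none of the 47 was called between the strains, where 0.179% of all genes were called higher and 0.239% lower.

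**Figure D4:**
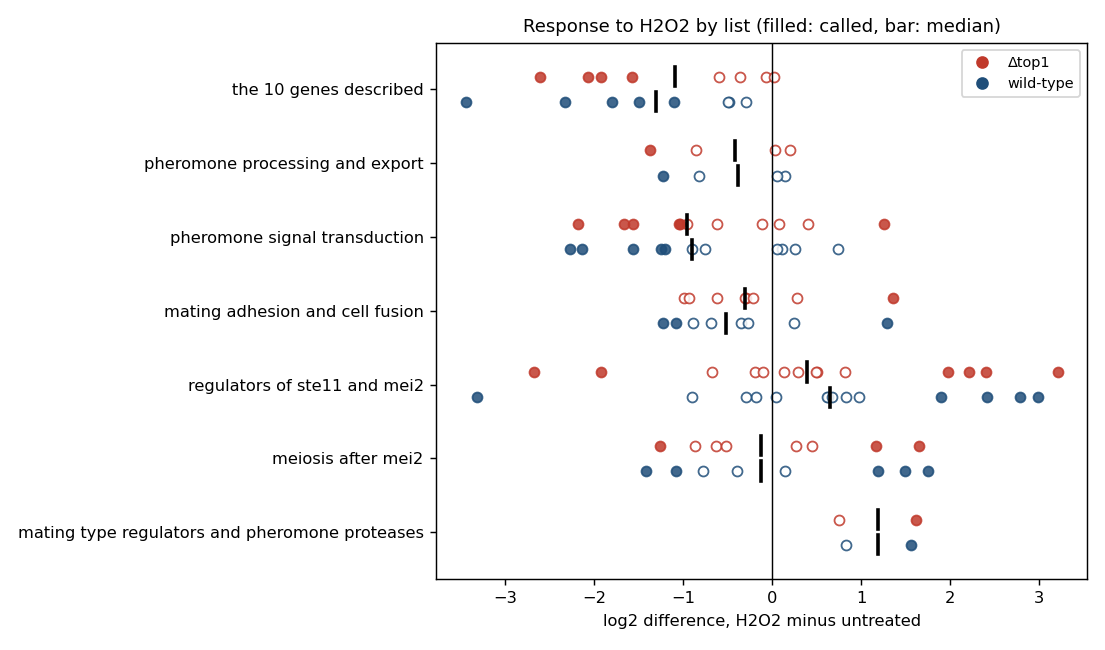
Log2 difference of H2O2-treated minus untreated cells for the genes tested in each list, in Δ*top1* cells (upper, red) and wild-type cells (lower, blue); filled dots were called and black bars mark medians. The 10 genes described (8 tested) have called values on the low side alone, whereas the regulators of *ste11* and *mei2* have called values on both sides.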

How the data were processed

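Poly(A) RNA was sequenced as reads of 50 bases. The authors deposited the signal as normalized counts per gene and library. Their paper names a transcript-based estimate, and the submitters' processing notes name FastQC, Trimmomatic, STAR, HTSeq, DESeq2 and ASM294v2, so the counting step is uncertain. Whole reads were recovered from the deposited values, with 99.98% whole in each library (tolerance 0.01 reads); the floor of 3 reads covers counting error only. Log2 of the normalized count plus 1 was tested in limma 3.58.1 (R 4.3.3), with a trend, in genes with a mean of at least 10, with all 4 groups in 1 fit, two-sided. The alternatives were count tests on recovered reads (DESeq2 1.42.0, edgeR 4.0.16), other scalings, a replicate block, other thresholds, filters and pseudocounts, and leaving out each library. An exact permutation test of 2 against 2 cannot go below p = 0.333, so none was used. The fits were run on simulated counts only as a check of the code, with the same relative spread for every gene and no replicate effect. Named besides the 10 genes were *top1*, the 5 nearest profiles of *ste11* and *mei2*, and at most 3 called genes per list and comparison with the largest change. The 10 genes and the lists were chosen with earlier results of these data known. Identifiers of 5129 of 5165 genes matched RefSeq. The paper calls the replicates biological. Of the per-sample columns none was left unused.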

Additional observations from a re-analysis of the deposited data

How the results depend on the processing

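Of 792 values of single genes under alternative settings, 739 kept their direction and side of the threshold, 12 lost their call, 5 gained one and 36 changed sign, none of the last being a called value. The count of genes called was 5 in wild-type cells, and 3 to 5 with 1 library left out. It was 4 in Δ*top1* cells (3 to 4), 2 between the treated strains (1 to 2), 0 between the untreated strains (0 to 0) and 0 for the interaction (0 to 1, being 1 without treated wild-type replicate 2). The interaction count was 1 with libraries rescaled to the same total and 1 with DESeq2, *ste11* in each, at 1.54 and 1.41. Over all genes 228 were then called higher and 54 lower with the same total, and 150 and 222 with DESeq2. The cause was not tested.

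In the fit with a replicate block, the interaction count was 2, *ste11* (1.37, limma adjusted p = 0.045) and *mam1* (0.51, 0.032), and over all genes 431 were higher and 448 lower, against 107 and 92 without it. Deviations of libraries with the same number correlated between 0.07 and 0.62 over the 6 pairs of groups, being over 0.1 in 5 of them, and the labels do not say what a number marks. The block changed no other count of these genes.

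Rescaling to the same total shifted the median of all genes by -0.20 in the Δ*top1* response, -0.37 in the wild-type response, 0.16 between the treated strains and 0.18 in the interaction. The called genes that were higher made up 39.7%, 27.5%, 81.0% and 80.9%, against 53.8%, 51.9%, 51.8% and 53.8% as deposited. With equal upper quartiles they were 37.6%, 32.4%, 59.1% and 60.7%. Values that changed sign were all uncalled. With the same total and the same upper quartile they were *mam1* in the Δ*top1* response (-0.19 and -0.22) and *sxa2* between the treated strains (0.15 and 0.028), and with the same total the interactions of *mfm2* (0.048) and *map3* (0.092). With edgeR and DESeq2 *mfm2* changed sign between the untreated strains (-0.27 and -0.25), between the treated strains (-0.10 and -0.092) and in the interaction (0.17 and 0.16). With 1 library left out the ranges were -0.12 to 0.16 for *mam1* in the Δ*top1* response. Between the untreated strains they were -0.038 to 0.62 for *ste11*, -1.06 to 1.33 for *mfm2* and -0.46 to 0.43 for *mam2*. Between the treated strains they were -0.72 to 0.74 for *mfm2*, -0.038 to 0.23 for *map3* and -0.025 to 0.019 for *sxa2*. In the interaction they were -0.62 to 0.054 for *mei2*, -1.32 to 1.07 for *mfm2*, -0.085 to 0.36 for *map2* and -0.21 to 0.059 for *map3*.

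With 2 libraries a group, wide intervals limit *mfm2* and *mam2*, and depth limits *mfm1* and *mfm3*.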

Other observations

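The libraries labelled replicate 1 had more *mfm2* than those labelled replicate 2 in each of the 4 groups, by 1.95-fold in treated Δ*top1* cells, 2.78-fold in treated wild-type cells, 1.86-fold in untreated Δ*top1* cells and 5.28-fold in untreated wild-type cells. The same order held for *mam1* and *mam2*, and so for 3 of the 8 genes tested (37.5%), against 831 of 5019 genes tested (16.6%). For *mam1* the ratios were between 1.16 and 1.23, and for *mam2* between 1.23 and 1.88. *mfm3*, which was too low to test, also had more in replicate 1 in all 4 groups. The labels do not say that a replicate number marks a shared culture or day, and this pattern was noticed after the values were seen and was not tested.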
